A study of Mus musculus with 48 samples.

Results

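The cytosolic ribosomal protein genes were followed in NIH 3T3 mouse fibroblasts over a day after serum, in RNA that was present and in RNA that was newly made. Members were all symbols of the exon table that start with Rpl or Rps and a digit, together with Rplp0, Rplp1, Rplp2 and Rpsa. Symbols of the Rps6k kinases, pseudogenes marked -ps and Rps27l were left out. The rule gave 68 of the 11313 genes listed: 35 proteins of the large subunit, 27 of the small subunit, 5 paralogs or retrocopies (Rpl7l1, Rpl22l1, Rpl36al, Rpl37rt and Rpl39l) and Rps19bp1. The last is a nucleolar protein that binds Rps19 and is no part of the ribosome itself. Rpl5 and Rps2 were not analysed here. All 68 members passed the filter on low values in each of the layers tested.

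NIH 3T3 is an immortalised line of mouse embryonic fibroblasts that keeps a circadian clock in culture. A line with a control hairpin (shCTRL) was compared with a line with a hairpin against Bmal1 (shBmal1), the gene of a core activator of that clock. All cultures received 50% horse serum for 2 h and were collected at 12 time points, every 2 h from 24 to 46 h. From each culture a library of total RNA and a library of RNA labelled with the uridine analogue 4sU and pulled down on streptavidin were sequenced after depletion of ribosomal RNA, which gave 4 groups of 12 libraries. Each line was studied once, and each time point has 1 library per line and kind of RNA. P-values therefore measure the spread of single libraries around a fitted curve, and the hairpin cannot be told apart from any other difference between these lines.

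A ribosome holds 1 copy of nearly every ribosomal protein, so cells make these proteins in matched amounts, and they are among the most abundant products of a growing cell. Their mRNAs begin with a run of pyrimidines (terminal oligopyrimidine or TOP mRNAs), through which mTORC1 and Larp1 set how much of each mRNA is translated. Many of the genes carry snoRNAs in their introns, and the family has left many processed pseudogenes in mammalian genomes. Several of the proteins also act away from the ribosome: Rpl11, Rpl23 and Rpl26 bind the p53 pathway, Rps3 takes part in DNA repair, and Rps6 is the substrate of the S6 kinases.

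Values are RPKM (reads per kilobase of transcript, divided by the depth of the library), scaled so that the typical gene has the same level in every library. Recovered depth was 48873013 to 76260143 reads per library. Arntl, the gene the hairpin targets, ranged from 1.33 to 17.4 RPKM in the total RNA of shCTRL, and in that of shBmal1 from 2.25 to 4.71; its log2 fold change was -0.92 (SE 0.08, limma adjusted p = 3.59e-09) and its level was lower in shBmal1 at 9 of 12 time points. In 4sU introns its log2 fold change had the opposite sign, 0.57 (SE 0.08, limma adjusted p = 1.57e-05), and it was lower at 4 of 12. Of 12 fibroblast markers 11 were listed, with a summed level of 5918 to 6794 RPKM in shCTRL and 4980 to 5957 in shBmal1. The other cell types had summed levels of at most 23.2 RPKM (leukocyte markers), and none of the neural markers was listed. Markers moved between the lines: 4 of the 11 fibroblast markers were called higher and 7 lower, and Krt14 (epithelial) had 2.18 to 4.44 RPKM in shCTRL libraries and 7.20 to 13.3 in shBmal1. Des (muscle) had 0.54 to 0.97 and 1.48 to 1.98, and Plin4 (adipocyte) had 2.99 to 4.48 and 2.02 to 2.84. Their part in the results was not tested. The fold change of all genes moved with transcript length: in total RNA the 966 other genes under 1000 bases had a median log2 fold change of 0.10, and the 2168 other genes over 5000 bases had -0.19. The members are short, with a median length behind the RPKM of 958.5 bases (376 to 5170), against 3012 for all genes. Beside the first count of members in each comparison stands the share of all tested genes called the same way.

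The members took a mean of 1.42% (SD 0.07, n = 12) of the exon reads of listed genes in shCTRL total RNA and 1.85% (SD 0.09, n = 12) in shBmal1. The libraries ranged from 1.34% to 1.57% in shCTRL and from 1.66% to 2.01% in shBmal1, so the lines did not overlap. In 4sU RNA the share was 1.07% (SD 0.07, n = 12) in shCTRL and 1.31% (SD 0.11, n = 12) in shBmal1, with ranges of 0.94% to 1.17% and 1.10% to 1.51% that overlapped.

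Although the proteins are used in matched amounts, the RNA levels of the members spread over a wide range. In shCTRL total RNA the mean level ran from 2.02 RPKM for Rpl36a to 1648 for Rpl41, a ratio of 815, with a median of 47.4. 24 members lay above 100 RPKM and 14 under 10. Rpl41, the smallest protein of the ribosome, had 1437, 1618 and 2040 RPKM as its lowest, median and highest shCTRL library. Rps15, a protein of the head of the small subunit, had 1260, 1363 and 1638. Rplp0, the base of the acidic stalk that recruits elongation factors, had 877.5, 965 and 1150. Rpl32, another protein of the large subunit, had a mean of 585 RPKM. The libraries of Rpl41 and Rps15 overlapped with each other, while Rplp0 lay below all libraries of both.

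At the low end, Rpl36a (1.69, 1.99 and 2.42 RPKM), Rpl22l1 (1.68, 2.24 and 2.77), Rps27 (1.81, 2.69 and 3.32), Rpl9 (2.55, 2.86 and 3.28) and Rps27a (2.65, 3.22 and 4.32) overlapped with their neighbours in the order. Rps27a encodes a fusion of ubiquitin with a small subunit protein, and Rpl22l1 is a paralog of Rpl22. Rps6 was also low, with a mean of 5.06 RPKM (SD 0.40, n = 12), as was Rpl11 with 3.57 (SD 0.45, n = 12). The reads behind these levels differed: Rps27 had 36 to 186 exon reads per library and Rpl36a 74 to 171, while Rps6 had 200 to 514 and Rpl9 401 to 872. The exon length given to Rpl9 was 2648 bases, or 86.3% of its span in the annotation. Pseudogenes named after the members number 238 in the RefSeq annotation and belong to 49 members. The 19 members with none had a median of 99.4 RPKM, the 32 with 1 to 4 had 30.1, and the 17 with 5 or more had 14.0. Across the 68 members the level and the number of named pseudogenes had a Spearman rho of -0.25, given as a description over genes that share the same libraries. How reads that match several copies were counted is not stated in the labels or file headers, and the part of pseudogenes in these levels was not tested.

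**Figure D1:**
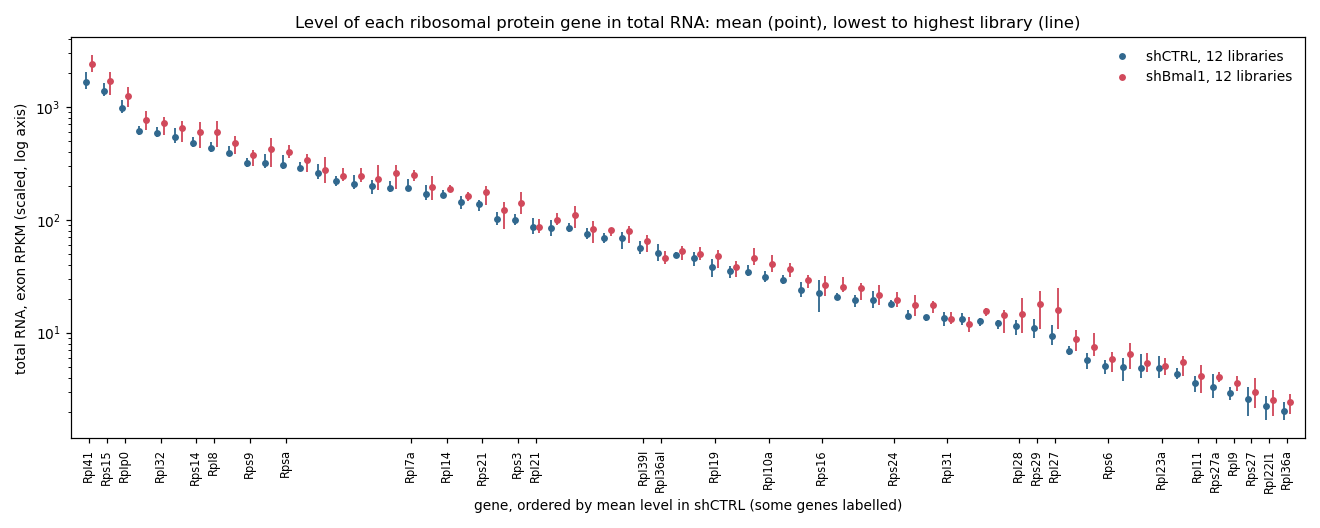
Mean exon RPKM in total RNA (points, log axis) with the lowest and highest library (lines) for each of the 68 genes, ordered by level in shCTRL; blue is shCTRL and red is shBmal1, 12 libraries each. Levels run from 2.02 RPKM for Rpl36a to 1648 for Rpl41 in shCTRL, and for most genes the red point lies above the blue.

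Promoter sequences from RefSeq (GRCm38.p6, 300 bases with 250 before the start) were present for 50 of the 68 members, with 58 starts in all. A run of at least 8 C or T letters touching the 15 bases on either side of the start was found for 23 of the 50 members (46%), against 5416 of the 27025 genes with a promoter. The ETS motif CCGGAAG, on either strand anywhere in the 300 bases, was found for 20 of the 50 members and 9.93% of all genes, or 21.6% of the genes listed in the files. The E-box CACGTG, the motif bound by Bmal1 and by Myc, was found for 6 members (12.0%) and 8.09% of all genes, or 12.2% of the listed genes. TATAAA was found for 6 members (12.0%) and 15.7% of all genes, or 8.22% of the listed genes. The 10 windows below run from 30 bases before to 20 bases after the annotated start, with the longest pyrimidine run that reaches the searched bases in capitals. The first 5 belong to the members with an entry whose total RNA rose most in shBmal1, the next 3 to those with the lowest fold change, and the last 2, Rpl35 and Rps6, show long runs across the start.
Rpl27 (chr11:101442215-101442264, + strand): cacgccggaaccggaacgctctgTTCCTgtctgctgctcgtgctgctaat
Rpl41 (chr10:128549149-128549198, - strand): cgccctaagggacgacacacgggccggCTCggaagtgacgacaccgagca
Rps3 (chr7:99483690-99483739, - strand): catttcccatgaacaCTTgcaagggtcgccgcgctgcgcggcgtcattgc
Rpl13a (chr7:45128726-45128775, - strand): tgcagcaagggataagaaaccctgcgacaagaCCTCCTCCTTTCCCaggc
Rps19bp1 (chr15:80264287-80264336, - strand): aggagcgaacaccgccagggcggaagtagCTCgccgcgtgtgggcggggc
Rpl36al (chr12:69184048-69184097, - strand): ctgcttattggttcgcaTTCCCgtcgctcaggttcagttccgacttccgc
Rpl31 (chr1:39367821-39367870, + strand): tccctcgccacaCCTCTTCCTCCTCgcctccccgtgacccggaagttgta
Rpl4 (chr9:64173357-64173406, + strand): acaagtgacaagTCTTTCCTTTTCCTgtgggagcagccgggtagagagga
Rpl35 (chr2:39005112-39005161, - strand): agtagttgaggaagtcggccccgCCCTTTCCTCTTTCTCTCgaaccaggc
Rps6 (chr4:86857348-86857397, - strand): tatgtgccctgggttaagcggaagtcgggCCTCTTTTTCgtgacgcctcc

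In these windows the runs of Rpl13a (14 letters), Rpl31 (13) and Rpl4 (14) were long, and those of Rpl41, Rps3 and Rps19bp1 had 3 letters. The 23 members with a run of 8 or more had a median log2 fold change in total RNA of 0.23, and the 27 without had 0.29. Among the 6 members with CACGTG, Rpl23 holds it across the start (bases -3 to 3), and Rpl19 at -19 to -14 of 1 of its annotated starts. The capitals in the following lines mark the motif.
Rpl23 (chr11:97782425-97782454, - strand): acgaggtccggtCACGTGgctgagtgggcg
Rpl19 (chr11:98026679-98026708, + strand): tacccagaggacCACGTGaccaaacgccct
The 6 members with CACGTG were all called higher in shBmal1 total RNA, with a median log2 fold change of 0.35, as were 39 of the 44 without it, with a median of 0.25. No binding was measured here, and these counts were not tested.

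In total RNA the members were higher in shBmal1 almost throughout. Of 68 members, 59 were called higher (34.4% of all tested genes were) and 2 lower (33.1% of all), at a limma adjusted p under 0.05. The median log2 fold change was 0.28, or 1.21-fold, and that of all tested genes was 0.01; 82.8% of all genes had a fold change below the members' median. The changes were small and even: the middle 50% of the members lay between 0.19 and 0.35, and 3 members were called higher with a log2 fold change of at least 0.5, while 5.15% of all genes met that rule. 25 members were higher in shBmal1 at all 12 time points (15.6% of all genes) and 47 at 11 or more (23.9% of all). For 3 members, Rpl3, Rpl7l1 and Rps15a, all shBmal1 libraries lay above all shCTRL libraries, against 5.87% of all genes. With a smooth trend over transcript length taken out of each library, an alternative chosen after seeing the data, 43 members were called higher (33.9% of all) and 3 lower (30.6% of all), with a median of 0.17. Without the shBmal1 34 h and shCTRL 30 h libraries, which stand apart below, the counts were 58 and 2.

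Rpl27, a protein of the large subunit on chromosome 11, had the largest difference. Its lowest, median and highest library were 7.82, 9.04 and 11.6 RPKM in shCTRL and 10.8, 14.6 and 24.7 in shBmal1, which is a log2 fold change of 0.75 (SE 0.06, adjusted p = 5.87e-10) and higher at 12 of 12 time points. The 4 highest shBmal1 values came at 24 to 30 h, and the shBmal1 library at 34 h was the only one inside the shCTRL range. Rps29, a zinc-binding protein of the small subunit, had 8.94, 11.1 and 13.3 RPKM in shCTRL and 10.8, 17.5 and 23.4 in shBmal1. Its log2 fold change was 0.67 (SE 0.06, adjusted p = 2.53e-09), higher at 11 of 12 time points.

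Rpl41 had 2034, 2363 and 2856 RPKM in shBmal1 against the shCTRL values above, a log2 fold change of 0.53 (SE 0.05, adjusted p = 2.47e-09), and its ranges overlapped by the single shCTRL library at 30 h. Rps3 had 89.2, 100 and 113 RPKM in shCTRL and 113, 137 and 178 in shBmal1, which is a log2 fold change of 0.49 (SE 0.04, adjusted p = 2.27e-09). Rpl8, a core protein of the large subunit, rose from a mean of 431 RPKM (SD 27.2) to 600.1 (SD 72.2), a log2 fold change of 0.47. Both were higher at 12 of 12 time points.

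**Figure D2:**
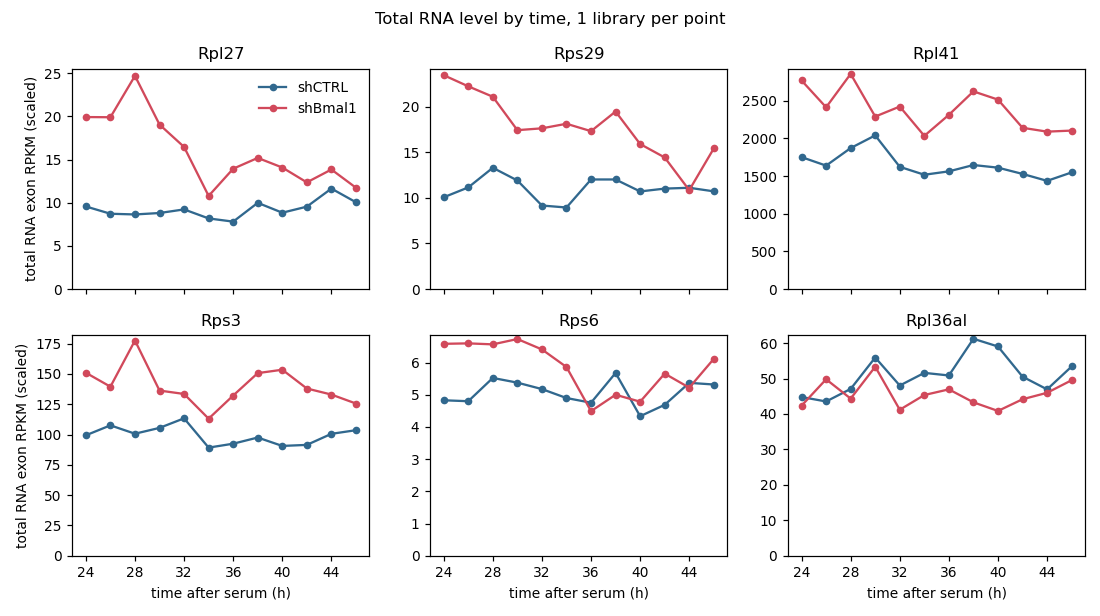
Total RNA exon RPKM (scaled, axis from 0) against time after serum for 6 genes, 1 library per point, shCTRL in blue and shBmal1 in red. Rpl27 and Rps29 are highest in shBmal1 at the early times and approach shCTRL later; Rpl41 and Rps3 are higher at all 12 times; Rpl36al is higher in shBmal1 at 1 of 12 times.

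The mRNAs of the acidic stalk proteins were called higher, as those of most members were. Rplp0 rose by 0.36 on the log2 scale (SE 0.04), Rplp1 by 0.39 (SE 0.07) and Rplp2 by 0.23 (SE 0.06). Members with roles outside the ribosome moved by unequal amounts. Rpl13a, which is released from the ribosome to silence inflammatory mRNAs, had 177, 190 and 221 RPKM in shCTRL and 188, 259 and 307 in shBmal1, which is a log2 fold change of 0.41 (SE 0.05, adjusted p = 1.57e-07). Rps19, the protein most often altered in Diamond-Blackfan anaemia, rose by 0.38 (SE 0.04) and its partner Rps19bp1 by 0.41 (SE 0.04). Of the members linked to p53, Rpl11 rose by 0.19 (SE 0.07, adjusted p = 0.0265), Rpl23 by 0.12 (SE 0.05, adjusted p = 0.0295) and Rpl26 by 0.23 (SE 0.05, adjusted p = 7.45e-04).

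Rps6 rose by 0.19 (SE 0.05, adjusted p = 0.00185), from 4.33, 5.04 and 5.68 RPKM in shCTRL to 4.49, 5.99 and 6.73 in shBmal1, with ranges that overlapped. Rpsa, a small subunit protein also known as the laminin receptor, rose by 0.38 (SE 0.04). Rpl3, at the peptidyl transferase centre, rose by 0.30 (SE 0.03), Rpl10, a protein that joins the large subunit late, by 0.32 (SE 0.04), and Rps27a by 0.30 (SE 0.06). Rpl22 rose by 0.10 (SE 0.03) and Rpl39 by 0.10 (SE 0.04, adjusted p = 0.0417), the latter at the edge of the threshold.

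By place in the ribosome, 30 of 35 large subunit members were called higher and none lower, with a median of 0.30. Of the 27 small subunit members 25 were called higher and 1 lower, with a median of 0.26. Of the 5 paralogs 3 were called higher and 1 lower, with a median of 0.15.

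Rpl36al, a paralog of Rpl36a, was called lower. It had 43.5, 50.7 and 61.2 RPKM in shCTRL and 40.9, 44.8 and 53.3 in shBmal1, which is a log2 fold change of -0.16 (SE 0.05, adjusted p = 0.00834), and was higher in shBmal1 at 1 of 12 time points. The ranges overlapped, and on RPKM as deposited it did not pass the threshold (log2 fold change of -0.07). Rpl36a itself rose by 0.24 (SE 0.07). The 7 members not called were Rpl4, Rpl21, Rpl22l1, Rpl23a, Rpl30, Rpl31 and Rps27, with log2 fold changes from -0.02 (Rpl31) to 0.19 (Rps27). Their standard errors were 0.05 to 0.10, and they are not shown to be unchanged.

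The length by which the authors divided reads differed between the lines for some members. In total RNA this held for Rps26 (591 bases in shCTRL and 674 in shBmal1) and Rps7 (809 and 941). Their log2 fold changes were 0.22 and 0.16 as given and would be 0.40 and 0.37 with 1 length for both lines. Both were called higher as given. The other 66 members had 1 length in total RNA, and 57 of them were called higher and 2 lower.

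Introns gave the same direction. Intron reads in total RNA come from RNA not yet spliced and from introns not yet degraded. Of 68 members 61 were called higher in shBmal1 (29.3% of all tested genes) and 0 lower (26.8% of all); 0 had a negative fold change at an unadjusted limma p under 0.05. The members had a median log2 fold change of 0.34 against 0.01 for all genes. 9 members were called higher with a log2 fold change of at least 0.5, against 4.11% of all genes. 55 members were called higher in both exons and introns of total RNA. Rpl41 introns had 52.4, 66.3 and 95.2 RPKM in shCTRL and 83.1, 105 and 140 in shBmal1, which is a log2 fold change of 0.68 (SE 0.05). Rps3 introns had 33.3, 38.02 and 47.7 RPKM in shCTRL and 48.2, 57.6 and 80.8 in shBmal1, which is a log2 fold change of 0.63 (SE 0.06), with no overlap. Rpl27 introns rose by 0.61 (SE 0.06), those of Rps29 by 0.60 (SE 0.12), and those of Rpl37a, a zinc-binding protein of the large subunit, by 0.55 (SE 0.05).

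The lowest log2 fold change in introns of total RNA was that of Rps15, -0.02 over a length of 871 bases in shCTRL and 1162 in shBmal1, which would be 0.39 with 1 length. Rps24 (-0.01), Rpl11 (0.03), Rpl39l (0.07) and Rpl36al (0.08) were among the 7 members not called. The introns counted for 5 members, Rpl11, Rpl26, Rps10, Rps27 and Rps28, were longer than the gene in the annotation, so their intron values include sequence outside it. For Rpl11 this was 23817 bases against a span of 4040, and for Rps27 412764 against 982. Of the other 63 members 58 were called higher in introns of total RNA and 42 in 4sU introns. For most of these 63 the exon and intron lengths together exceed the span, for some by few bases. Their intron values can therefore include exon sequence. Rpl41 had exons of 504 bases and introns of 610 in a span of 1059. Rps3 had exons of 3176 bases and introns of 4266 in a span of 5814. Rpl9 had 2648 and, in total RNA, 2083 in a span of 3068. The 22 members with a snoRNA gene in their span, which hold 43 snoRNA genes, were all called higher in introns of total RNA, with a median of 0.33. Of the 46 without, 39 were called, with a median of 0.35.

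Of these layers the introns in RNA labelled with 4sU lie nearest to recent transcription, though the intron values of most members can include exon sequence. 45 members were called higher in shBmal1 (22% of all tested genes) and 0 lower (22.4% of all); 1 had a negative fold change at an unadjusted limma p under 0.05. The members had a median log2 fold change of 0.23, or 1.17-fold, against a median of all genes near 0. 39 members were called higher in both this layer and total exons, and 29 in all 4 exon and intron layers. Rps3 had 22.5, 26.6 and 32.7 RPKM in shCTRL and 26.3, 39.8 and 56.2 in shBmal1, which is a log2 fold change of 0.54 (SE 0.06, adjusted p = 1.79e-06) and higher at 12 of 12 time points. Rpl41 had 26.9, 37.2 and 52.1 RPKM in shCTRL and 35.6, 58.6 and 79.3 in shBmal1, which is a log2 fold change of 0.58 (SE 0.09, adjusted p = 2.67e-05). For both genes the shBmal1 libraries reached higher, and the ranges overlapped.

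Rpl9 had the largest value, 0.69 (SE 0.06), over intron lengths of 2343 bases in shCTRL and 2083 in shBmal1, which would be 0.52 with 1 length. Rps21 rose by 0.47 (SE 0.08) and Rpl27 by 0.33 (SE 0.08). The lowest members, none of them called, were Rps15 (-0.26, or 0.15 with 1 length), Rpl36al (-0.15), Rps14 (-0.12) and Rps9 (-0.03). Rps29, among the largest differences in total RNA, had a log2 fold change of 0.12 (SE 0.15, adjusted p = 0.524) over 0.62 to 1.28 RPKM in shCTRL and 0.70 to 1.43 in shBmal1. By subunit, 27 of 35 large subunit and 15 of 27 small subunit members were called higher.

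The direction in 4sU introns depends on the scale. The intron RPKM of the 12 shBmal1 4sU libraries had been divided by totals 1.35 to 1.39 times the exon total, while in the other 36 libraries the totals were equal. As deposited, 1 member was called higher (1.6% of all genes) and 56 lower (90.2% of all), with a median of -0.24 where that of all genes was -0.45. Going from one scale to the other multiplies all genes of a library by the same factor. The members therefore stay higher than all genes on both scales by construction, and the counts above are relative to the typical gene.

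In 4sU exons 39 members were called higher (27.5% of all tested genes) and 3 lower (26.9% of all), with a median log2 fold change of 0.20. Rps29 rose by 0.74 (SE 0.08), from 5.86, 7.12 and 9.07 RPKM in shCTRL to 8.78, 11.8 and 16.6 in shBmal1, and Rpl41 by 0.69 (SE 0.05), from 895, 1163 and 1452 to 1641, 1850 and 2361 without overlap. Rpl19 rose by 0.60 (SE 0.07) and Rpl35 by 0.50 (SE 0.05). Rpl19 overlaps Cacnb1 and Rpl35 overlaps Wdr38 in the annotation. Rpl31, which overlaps Tbc1d8 in the annotation, was called lower at -0.24 (SE 0.05, adjusted p = 4.68e-04, lower at 12 of 12 time points). Rpsa was called lower at -0.47 over 1088 bases in shCTRL and 1925 in shBmal1, which would be 0.35 with 1 length. Rpl7a (0.69) and Rpl10a (0.69) also had different lengths and would be at 0.44 and 0.33. Among the 58 members with 1 length in this layer 37 were called higher and 2 lower.

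**Figure D3:**
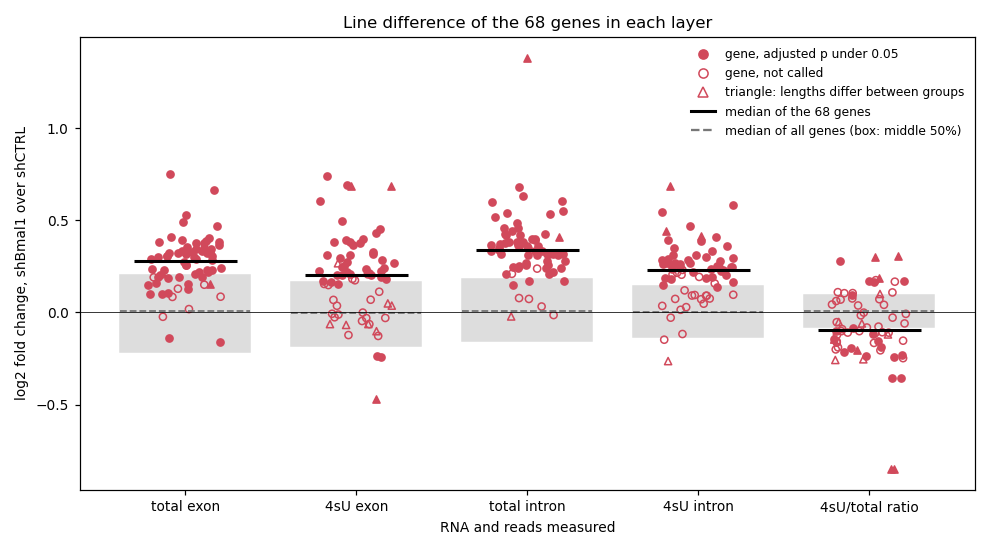
Log2 fold change of shBmal1 over shCTRL for each of the 68 genes (points) in the 5 layers, with the median of the genes (black line) and the median and middle 50% of all tested genes (dashed line, grey box). Filled points have a limma adjusted p under 0.05 and triangles mark genes whose lengths differ between groups. The black line lies at 0.28, 0.20, 0.34 and 0.23 in the exon and intron layers and at -0.10 in the 4sU/total ratio.

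The 4sU/total ratio subtracts the log2 RPKM of total exons from that of 4sU exons in each culture, and is here given relative to the median of all genes. A low value means that the gene had less signal in the pulled-down RNA than in total RNA, relative to the typical gene. The part of transcript length in this value was not tested. In shCTRL 54 of the 68 members lay below the median of all genes. The members' median was -0.45, at the 18.2 percentile of all genes. Rplp2 (-1.06, SD 0.11) and Rplp0 (-0.99, SD 0.09) were lowest among the members with 1 length. Rpl14 (-1.13) and Rpl7a (-0.98) were as low, over lengths that differ between the groups. The highest were Rpl30 (0.47, SD 0.11), Rpl3 (0.45), the paralog Rpl7l1 (0.41), Rps27a (0.40, SD 0.33) and Rpl27 (0.34, 2 lengths).

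Among the members the ratio fell as the level rose. The 28 members under 25 RPKM had a median of -0.03, and the 40 at 25 RPKM or more had -0.56, with 38 of the 40 below the median of all genes. Over the 68 members Pearson's r between the log2 level and the ratio was -0.66 and Spearman's rho -0.65, and over the 55 members with 1 length in all groups they were -0.67 and -0.63. The total RNA level enters both measures, so these are descriptions. The log2 ratio of intron to exon RPKM in total RNA is divided by that same level, so a difference between low and high members is partly built in. The low members had a median of -1.38, at the 94.8 percentile of all genes, and the others had -4.61, at the 29.7 percentile. Rpl30 had the highest value, -0.25 (percentile 99.9), followed by Rpl10 (-0.37), Rpl23a (-0.41) and Rps27a (-0.47). The exon length given to Rpl30, 2409 bases, covers 86.9% of its span, and its intron length is 2250. The exons and introns counted for it can therefore overlap, or reach outside the span, as can those of Rps3 and Rpl9. Rps15 had the lowest, -6.05 (percentile 4.91), next to Rplp0 at -5.91 (percentile 6.14). Whether spliced reads of the low members were counted elsewhere was not tested.

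**Figure D4:**
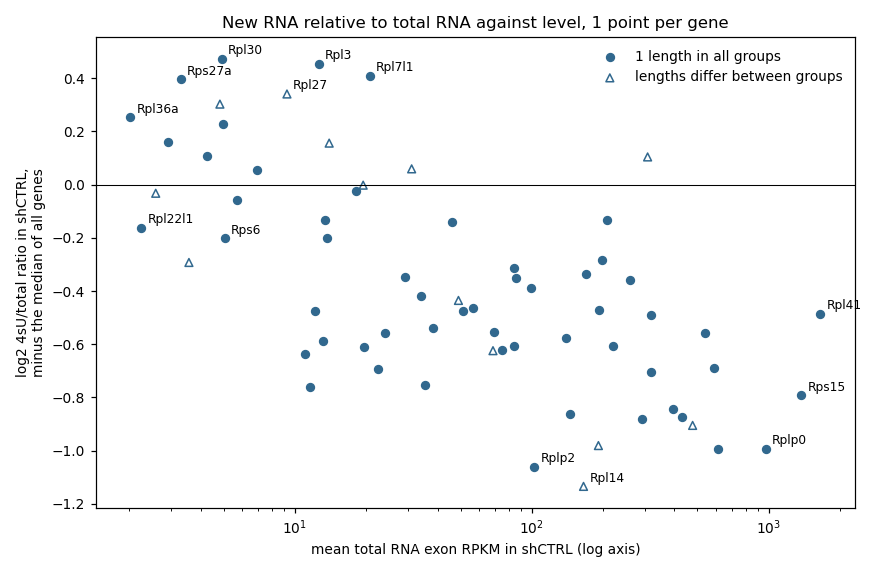
Log2 4sU/total ratio in shCTRL minus the median of all genes against the mean total RNA level (log axis), 1 point per gene; filled circles have 1 length in all groups and open triangles have lengths that differ. Members at 25 RPKM or more lie at a median of -0.56 and those below at -0.03, with Rpl30 highest at 0.47.

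Between the lines the ratio changed less than the levels. 8 members were called higher in shBmal1 (15.9% of all tested genes) and 16 lower (12.1% of all), with a median difference of -0.10 against 0.01 for all genes. Among the 55 members with 1 length the counts were 5 and 13. The ratio also moved with transcript length: other genes under 1000 bases had a median difference of -0.04, and those over 5000 bases 0.06. With the length trend removed, a setting chosen after seeing the data, the members' median was -0.06. Rps9, a small subunit protein that helps keep decoding accurate, had a ratio of -0.84, -0.71 and -0.58 (lowest, median and highest library, not centred) in shCTRL and -1.50, -0.98 and -0.67 in shBmal1, a difference of -0.36 (SE 0.07, adjusted p = 0.00106). Rpl28 differed by -0.36 (SE 0.10, adjusted p = 0.0165), Rps6 by -0.24 (SE 0.08, adjusted p = 0.0333) and Rpl13a by -0.23 (SE 0.05, adjusted p = 9.46e-04). Without the 26 h libraries Rpl28 did not pass (adjusted p = 0.0588), and without those of 34, 36 or 42 h 5 members were called higher. Rpl19 (0.28, SE 0.08), Rpl35 (0.17, SE 0.05) and Rpl41 (0.16, SE 0.05) were called higher. The largest differences, -0.85 for both Rpl27 and Rpsa, come from members whose shCTRL 4sU length differs from the other groups. With 1 length both would have a log2 fold change of 0.35 in 4sU exons. For Rpsa that is close to its rise in total RNA, while Rpl27 rose by 0.75 there, so its ratio would still be lower in shBmal1. With time point as a replicate block, 7 members were called higher and 9 lower.

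The study's title speaks of 24-h and 12-h patterns. In 4sU introns of shBmal1 11 of 68 members were called with a 24-h rhythm (5.82% of all genes), a count that did not hold with a linear time term. In shCTRL no member was called at either period, and the 12-h tests called almost no gene at all. In shCTRL total RNA 0 of 68 members had a 24-h rhythm by limma's F test at an adjusted p under 0.05, where 3.6% of all genes did, and 5 had an unadjusted p under 0.05 (15.2% of all). The median amplitude (mean to peak, log2 scale) was 0.06, and 0.08 over all genes. Rpl6 came nearest, with an amplitude of 0.14 (SE 0.04) and an adjusted p of 0.106, ahead of Rpl37a (0.12) and Rpl41 (0.13).

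In shBmal1 total RNA 7 members were called with a 24-h rhythm (11.1% of all genes), among them Rpl10, Rpl27, Rpl7l1, Rps29 and Rps6. Rpl27 had an amplitude of 0.35 (SE 0.06, adjusted p = 0.00274) and a fitted peak at 27.6 h, Rps6 had 0.24 (SE 0.05) at 27.1 h and Rpl7l1 0.18 (SE 0.03) at 27.3 h. The levels of Rpl27 and Rps29 in shBmal1 declined over the series, and with a linear time term added 0 of the 68 members were called (before that term 16 had an unadjusted p under 0.05, and 25.7% of all genes did), so a decline over 1 cycle cannot be told apart from a 24-h rhythm here. Without the libraries of 38 or 40 h 3 members were called, and without those of 42 or 44 h 4. The share of all genes was not counted with these left out. Rpl27 was the only member whose 24-h rhythm differed between the lines (1 of 68, 0.806% of all genes; adjusted p = 0.0453). The count was 0 without trend and robust variance, and also 0 without the libraries of 28, 30, 36, 38, 40, 42, 44 or 46 h, each left out in turn.

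For a 12-h period in total RNA, 0 members were called in shCTRL (0% of all genes), 0 in shBmal1 (0.0183% of all) and 0 for the difference (0% of all). At an unadjusted p under 0.05 there were 4 (3.23% of all genes), 16 (24.2% of all) and 6 (4.64% of all). Rpl10a had the lowest p in shBmal1, with an amplitude of 0.18 (SE 0.04, adjusted p = 0.0657), followed by Rps29 (0.28) and Rpl27 (0.27). With time points left out in turn, 5 members were called in shBmal1 without 24 h and 13 without 26 h. Without 30 h 1 was called, and without 32 h 14 were. The share of all genes was not counted there, so whether these changes are particular to the members is not known.

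In 4sU introns 0 members had a 24-h rhythm in shCTRL (1.12% of all genes) and 11 in shBmal1 (5.82% of all). Among these were Rpl28, Rpl32, Rpl36, Rpl37rt, Rpl8, Rps14, Rps20, Rps27, Rps9 and Rpsa. The amplitude in shBmal1 was 0.57 (SE 0.10, adjusted p = 0.00719) for Rps14 and 0.58 (SE 0.11) for Rpl37rt, with fitted peaks at 43.4 and 43.1 h. The introns counted for Rps27 lie mostly outside the gene, and 10 of the 63 members whose introns are not longer than the gene were called. 0 members differed between the lines (0.285% of all genes), and Rps14 had the lowest adjusted p, 0.0638. With time points left out in turn, the difference was called for 2 members without 26 h, 11 without 32 h and 1 without 38 h. For these settings the share of all genes was not counted. At an unadjusted p under 0.05 the counts were 3 in shCTRL (13.3% of all genes), 44 in shBmal1 (24.1% of all) and 27 for the difference (14.9% of all). The members' median amplitude in shBmal1 was 0.20 and that of all genes 0.11; in shCTRL they were 0.08 and 0.09.

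No member had a 12-h rhythm in 4sU introns in shCTRL (0 members and 0% of all genes), in shBmal1 (0 and 0%) or for the difference (0 and 0%), with 2 (2.86% of all genes), 27 (19.5% of all) and 2 (3.98% of all) at an unadjusted p under 0.05. Without the 32 h libraries 16 were called in shBmal1. The number of 24-h calls in shBmal1 changed with the time points used. They numbered 36 without 32 h, 2 without 40 h and 3 without 30, 34 or 46 h. Without 36 or 42 h there were 5, without 44 h 6, and with a linear time term 0. The share of all genes was not counted under these settings, so whether the changes are particular to the members is not known.

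In the libraries with the largest deviations nearly all members moved the same way, while other libraries were less uniform. In shBmal1 4sU introns 43 members lay above and 25 below their own line mean at 26 h, and 40 and 28 at 44 h. In the shBmal1 4sU intron library at 34 h, 63 of 68 members lay below their own line mean, with a median deviation of -0.51 on the log2 scale. At 24 h 64 members lay above it, with a median of 0.35, and at 38 h 64 did, with 0.26. In shCTRL 61 members were above at 30 h, with a median of 0.25. In these 4sU intron libraries the median deviation of all genes lay between -0.0005 and 0.03. The total RNA libraries of the same cultures had medians of -0.25 (shBmal1, 34 h), 0.09 (shBmal1, 24 h), 0.06 (shBmal1, 38 h) and 0.12 (shCTRL, 30 h). Genes outside the family moved with them by length: in the shBmal1 34 h libraries the other genes under 1000 bases deviated by -0.15 in 4sU introns and -0.16 in total exons, and those over 5000 bases by 0.12 and 0.23. These deviations were not corrected for transcript length, and its part in them was not tested. Rhythm counts that changed with the length trend removed are given at the end.

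**Figure D5:**
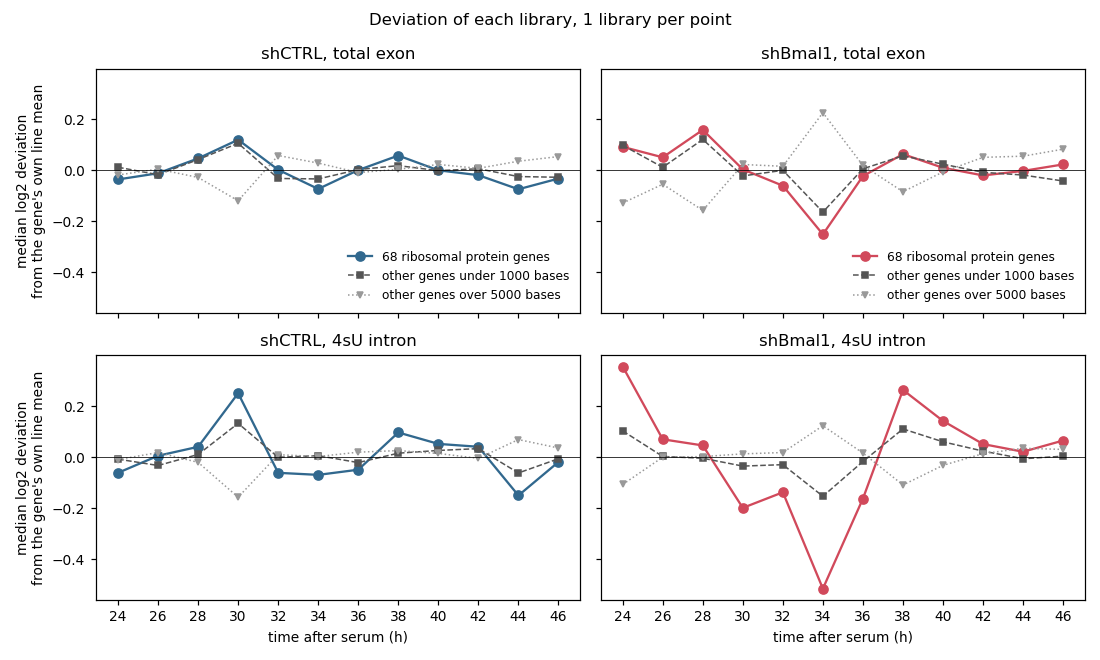
Median log2 deviation of each library from the gene's own line mean, for the 68 genes (coloured) and for other genes under 1000 or over 5000 bases (grey), in total exons and 4sU introns against time after serum. The shBmal1 library at 34 h is lowest for the 68 genes in both layers (-0.25 and -0.51), with long genes moving the opposite way.

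Other genes of the ribosome's supply line were counted on lists written with earlier results of these data known. Their counts are to be read against 34.4% of all genes called higher and 33.1% lower in total RNA, and 22% and 22.4% in 4sU introns. The 3 ribosomal proteins with other symbols were all called higher in total RNA, among them Fau by 0.41 (SE 0.06) and Rack1, the scaffold on the small subunit, by 0.38 (SE 0.04). Of 21 other genes whose mRNAs begin with a pyrimidine run, most of them translation factors, 16 were higher and 1 lower, with a median of 0.20. Eef1g, a subunit of the elongation factor that delivers tRNA, rose by 0.55 (SE 0.04), and Tpt1 fell by 0.26 (SE 0.07); Eef1a1 had 0.03 (SE 0.04, adjusted p = 0.534). In 4sU introns 14 of the 21 were higher and 1 lower.

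Of 71 mitochondrial ribosomal proteins, whose mRNAs are made in the nucleus for a separate ribosome, 56 were higher and 3 lower in total RNA, with a median of 0.28, and 32 were higher and 1 lower in 4sU introns. Mrpl11 rose by 0.57 (SE 0.04) and Mrpl30 fell by 0.49 (SE 0.04). The cytosolic members, with 59 of 68 and a median of 0.28, had a like share and median, and the difference was not tested. Of 58 translation factors tested 30 were higher and 11 lower. Eif4e2, whose lengths differ between groups, was highest at 1.46 (SE 0.04) and Eif5 lowest at -0.51 (SE 0.07). Some of these factors, such as Eef1g and Eef1a1, are also among the pyrimidine-run genes counted above, so those counts are not independent.

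Of 51 assembly factors, which build ribosomes in the nucleolus, 24 were higher and 6 lower in total RNA, with a median of 0.11. Nhp2, of the box H/ACA particles, rose by 0.62 (SE 0.05) and Rrp12 by 0.60 (SE 0.04), while Rsl1d1 fell by 0.44 (SE 0.09). Of 14 genes of RNA polymerase I and its factors 9 were higher and 2 lower, with a median of 0.17; Polr1b, its second largest subunit, rose by 0.41 (SE 0.04) and Ttf1, a termination factor, fell by 0.30 (SE 0.09).

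Among regulators of the members the shares called were near those of all genes. Of 20 regulators of TOP mRNAs and mTORC1 8 were higher and 6 lower, with a median near 0. Ddit4 and Akt1s1, inhibitors of mTORC1, rose by 0.81 (SE 0.07) and 0.59 (SE 0.05), the latter over lengths that differ between groups. Larp1, which binds the cap of TOP mRNAs, rose by 0.15 (SE 0.03), Tsc1, another inhibitor of the pathway, fell by 0.49 (SE 0.04) and Rps6kb1, an S6 kinase, fell by 0.48 (SE 0.09). Of 8 genes of the Myc network 2 were higher and 3 lower; Myc itself had means of 42.3 RPKM (SD 4.59) in shCTRL and 49.9 (SD 18.5) in shBmal1, which is a log2 fold change of 0.19 (SE 0.09, adjusted p = 0.0843). Max rose by 0.21 (SE 0.03) and Mxi1 fell by 0.25 (SE 0.04).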

How the data were processed

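The submitters' processing notes name Trim Galore, HOMER 4.11.1 and the build mm10 (GRCm38.p6); no aligner is named in the labels or headers. The authors deposited RPKM for exons and introns of 11313 genes in 48 libraries. Read totals and transcript lengths were recovered from the deposited RPKM, whose steps are whole reads (tolerance 0.01). Each layer was scaled by the median ratio and put on log2 with a pseudocount of 0.1 (exons) or 0.02 (introns), which understates changes of low genes. Tests covered genes whose mean reached 0.5 (exons) or 0.1 (introns) RPKM: 10912 in total exon, 11014 in 4sU exon, 10019 in total intron, 10509 in 4sU intron and 10870 in the ratio. limma 3.58.1 (R 4.3.3, trend and robust variance) was fitted to the 24 libraries of a layer, with a mean and 24-h and 12-h cosine and sine terms per line. P-values were adjusted by Benjamini-Hochberg over all tested genes; the threshold was 0.05. The procedure was tested on simulated data. Members were named by extreme fold change, level, ratio or rhythm p, a known role, or 2 lengths. RefSeq held all 68 symbols and promoters of 50. The members and lists were chosen with earlier results of these data known. Some single genes are counted among the members or lists and not reported here by name.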

Additional observations from a re-analysis of the deposited data

Results flagged for a closer look

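Rpl27 was the single member whose 24-h rhythm in total RNA differed between the lines by limma's test of the difference (adjusted p = 0.0453). Its amplitude was 0.14 (SE 0.06) with a fitted peak at 44.5 h in shCTRL, and 0.35 (SE 0.06) with a peak at 27.6 h in shBmal1. In shBmal1 its level went from 19.9 RPKM at 24 h to 11.7 at 46 h, and in shCTRL from 9.57 to 10.1. With a linear time term added, the count of members with a different rhythm was 0.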

How the results depend on the processing

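The sign of most named log2 fold changes and most counts held under the alternatives; the exceptions follow, and where no construction explains them the cause was not tested. With time point as a replicate block the counts higher and lower were 59 and 2 in total exon, 37 and 3 in 4sU exon, 59 and 0 in total intron, 41 and 0 in 4sU intron and 7 and 9 in the ratio. Time points name the collection time and no shared batch; libraries of the same time in both lines had correlated deviations over 0.1 at 9 of 12 times in total exon (r from -0.18 to 0.41), and 5 of 12 correlated best with their own time.
On RPKM as deposited, 0 members were lower in total exon, 11 had a 24-h and 4 a 12-h rhythm in shBmal1 there, 1 was higher, 56 lower and 1 of different 24-h rhythm in 4sU introns, and Rps21 (-0.0056) changed sign in 4sU introns. The filter 10 times stricter left 60 members in total exon, 3 of them with a 12-h rhythm in shBmal1, and in 4sU introns 18 with a 24-h rhythm in shBmal1 and 1 that differed. A linear time term gave 0 in shBmal1 at 24 h in total exon and 4sU intron and 0 for the difference in total exon, which was also 0 without trend and robust variance. The pseudocount 10 times larger gave 1 different rhythm in 4sU introns. The ratio gave 8 lower without time terms and 5 higher among genes with 1 length. Chosen after seeing the data, removal of the length trend gave 8 lower in 4sU exon, 1 in total intron, 1 in 4sU intron and 1 different rhythm there, and leaving out the shBmal1 34 h and shCTRL 30 h libraries gave 7 with a 24-h rhythm in shBmal1 4sU introns.
Leaving out each time point in turn gave, in total exon, 0 to 1 members with a 24-h rhythm in shCTRL, 3 to 10 in shBmal1, 0 to 2 that differed and 0 to 14 with a 12-h rhythm in shBmal1. In 4sU introns it gave 0 to 1 lower, 2 to 36 with a 24-h rhythm in shBmal1, 0 to 11 that differed and 0 to 16 with a 12-h rhythm in shBmal1. In the ratio 5 to 11 were higher and 11 to 23 lower. For the rhythm counts under the alternatives the share of all genes was not counted.
Depth limits most the members with few exon reads, such as Rps27 (36 to 186 per library) and Rpl36a (74 to 171).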
